A study of Caenorhabditis elegans with 2 samples.

Results

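The genes described here encode proteins of the MATH and BATH families of Caenorhabditis elegans, as targets of regions bound by the nuclear hormone receptor NHR-28. They were taken from the Ensembl annotation of the WBcel235 genome (the same assembly as ce11) as every protein-coding gene whose symbol is math- or bath- and a number. This gave 73 genes of 19973 protein-coding genes, 37 of them math and 36 bath. The data are chromatin immunoprecipitation sequencing (ChIP-seq) regions for eGFP-tagged NHR-28 in whole L4 larvae, from 2 samples that the labels number as biological replicates 1 and 2. Both came from strain OP317, which carries unc-119(ed3) III and wgIs317, an insertion for tagged nhr-28, and in both males and females were pooled. There is 1 group and no other strain or stage. No control library was analysed here, so nothing below compares conditions. The labels do not say which promoter drives the transgene or in which tissues it is expressed. Whole animals were used, so a region cannot be assigned to a tissue.

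The MATH domain, named for its occurrence in meprins and in TRAF proteins, is a protein fold that binds short peptides of partner proteins. BATH proteins join it to a BTB domain, which binds the cullin CUL-3, so that a BATH protein can bring a substrate to a CUL-3 ubiquitin ligase. The best studied case in C. elegans is MEL-26, which brings the microtubule-severing subunit MEI-1 to CUL-3 for destruction after meiosis. Most math genes encode proteins with MATH domains and no BTB domain, and math-33 is the worm counterpart of the deubiquitinase USP7. Both families are greatly expanded in Caenorhabditis, and many members lie in arrays on the left arm of chromosome II.

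The authors pooled both replicates and kept an optimal set of 8745 regions by the irreproducible discovery rate procedure, which asks how far ranked regions recur between replicates. The summit of a region is its deposited highest point. A gene was counted as having a promoter summit when an optimal summit lay between 1000 bp upstream and 200 bp downstream of any of its transcription start sites (TSS). Signal is the authors' own value for a region. Its scale is not given in the labels or file descriptions, so it is compared only within a list. In the optimal set it ran from 36.2 to 993 with a median of 72.7.

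A promoter summit was present at 18 of the 73 genes (24.7%), beside 24.8% of all protein-coding genes. The combined share was thus at the background, and the families lay on either side of it. Of the math genes, 13 of 37 (35.1%) had a promoter summit. Of the bath genes, 5 of 36 (13.9%) had one, which is 21.2 percentage points lower. The order of the signals was the other way round. The math summits had a median signal of 57.02 (37.2 to 114), below the median of 78.7 over all protein-coding genes with a promoter summit, whereas the bath summits had a median of 82.3 (50.9 to 284). Among the 4372 optimal regions of highest signal, promoter summits remained at 3 math genes (8.11%) and 4 bath genes (11.1%), beside 13.7% of all protein-coding genes. The higher share of math genes therefore lay in the part of the optimal set with lower signal. With 1 group, and with neighbouring and related genes that are not independent replicates, no test was made of these counts.

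**Figure D1:**
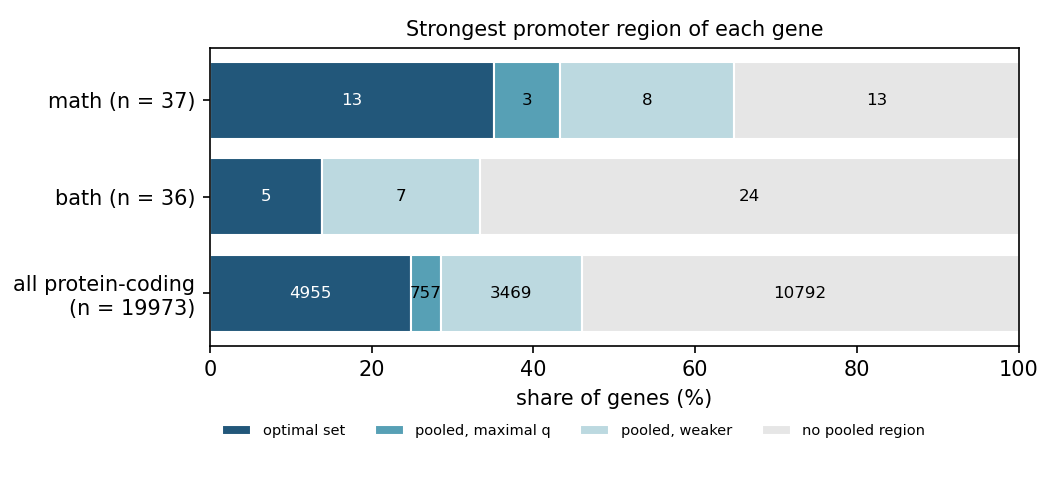
Share of math genes, bath genes and all protein-coding genes (percent, horizontal axis) by the strongest kind of region whose summit lay in the promoter, with the number of genes in each part. The part with an optimal summit holds 13 of 37 math genes, 5 of 36 bath genes and 4955 of 19973 genes.

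The bath gene with the highest signal was bath-36. Its region (V 15187821 to 15188124) had a signal of 284 and ranked 241 in the optimal set. In the replicate lists the signal was 195 (rank 168 of 30000 regions) and 88.1 (rank 509). It was the only one of the 18 genes to rank above 1000 in both replicates. The summit lay 66 bp downstream of the TSS of bath-36, in an exon and before the first coding base, which is 586 bp from that TSS. The same summit lies in the promoter of cyn-7, a cyclophilin gene, and the region cannot be assigned to one of these genes. Its sequence is shown because it is the strongest site near any of the 73 genes. It covers chrV:15187904-15188004, plus strand, in ce11 coordinates and in the direction of the gene, and capitals mark TGATAA, the core recognised by GATA transcription factors.
bath-36: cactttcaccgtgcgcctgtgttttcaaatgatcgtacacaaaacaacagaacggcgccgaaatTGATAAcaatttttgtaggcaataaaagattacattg

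The other 4 bath genes had signals near or below the all-gene median. The region of bath-40 (I 14647413 to 14647762) had a signal of 91.2, with 52.6 in replicate 1 and 34.7 in replicate 2, and its summit was 194 bp upstream of the TSS. The region of bath-46 (II 1597692 to 1598041) had a signal of 82.3, with 50.7 and 30.8 in the replicates, and its summit was 39 bp upstream. These genes had close ranks in both replicates (3620 and 3363 for bath-40, 3814 and 3985 for bath-46). The region of bath-42 (III 8163850 to 8164199, signal 74.2, replicates 40.5 and 29.9) had its summit 642 bp upstream of bath-42 and nearer to prp-8, which encodes a core spliceosome protein. The region of bath-25 (I 10875981 to 10876330) had a signal of 50.9 and a summit 44 bp upstream. Its support was uneven, with 45.6 (rank 4400) in replicate 1 and 7.25 (rank 14399) in replicate 2.

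Of the 13 math genes, 12 lie on chromosome II. The exception, math-33, had a region at V 11113203 to 11113552 with a signal of 71.6, and 36.2 and 34.9 in the replicates. Its summit was 529 bp upstream of math-33 and nearer to erfa-3, a translation release factor gene, which shares the promoter. The highest math signal was at math-20 (II 1995840 to 1996031), with 114 in the pooled data, 59.2 in replicate 1 and 58.3 in replicate 2. Its summit was 601 bp upstream, and rank 2221 in the optimal set places it far below bath-36. The region of math-24 (II 1899492 to 1899841) had a signal of 68.2, with 51.6 and 16.1 in the replicates, and a summit 567 bp upstream.

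The sites of math-20 and math-24 are related in sequence. Over 99 aligned bases, the window of 101 bp around the math-20 summit is identical to the math-24 promoter at 88 (88.9%), and the match places the summit 585 bp upstream of math-24, close to where that gene's own summit lies. The promoter of math-22 also matches, at 75 of 89 bases (84.3%), with the matched summit 592 bp upstream. No optimal summit lay at math-22. A weaker pooled region, with a signal of 26.1 and rank 11045, lay 553 bp upstream of it. The sequences are given in the direction of each gene, with TGATAA, or TTATCA where it lies on the other strand, in capitals. They cover chrII:1995886-1995986, plus strand, chrII:1899617-1899717, plus strand, and, for the stretch of math-22 that matches math-20, chrII:1904771-1904859, plus strand.
math-20: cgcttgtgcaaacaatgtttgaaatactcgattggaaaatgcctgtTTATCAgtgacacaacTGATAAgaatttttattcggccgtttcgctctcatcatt
math-24: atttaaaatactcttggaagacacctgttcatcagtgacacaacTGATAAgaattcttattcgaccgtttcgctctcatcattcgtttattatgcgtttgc
math-22: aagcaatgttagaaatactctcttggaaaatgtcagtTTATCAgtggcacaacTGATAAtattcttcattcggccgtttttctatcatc

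The 3 sequences share a TGATAA at corresponding positions, preceded by gacacaac or ggcacaac. At math-20 and math-22 a further copy lies on the other strand. Signals at these 3 promoters were 114, 68.2 and 26.1, and so differed between sequences that are largely alike. The reason was not tested. The same stretch, cacaacTGATAA, is found near the summit of math-42 (II 2099274 to 2099623, signal 55.4, replicates 42.2 and 15.3, 477 bp upstream), which has a further copy of the hexamer in its window (chrII:2099399-2099499, plus strand).
math-42: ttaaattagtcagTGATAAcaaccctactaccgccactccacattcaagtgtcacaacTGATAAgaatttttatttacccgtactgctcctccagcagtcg

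A second pair was math-39 and math-40. The region of math-39 (II 1831906 to 1832255) had a signal of 41.5, with 23.9 and 16.6 in the replicates, and its summit was 257 bp upstream. Its window is identical to the math-40 promoter at 92 of 99 aligned bases (92.9%), the closest match among the sites described. At math-40 the pooled region had a signal of 21.2 and lay 265 bp upstream, outside the optimal set. Both promoters carry 1 copy of TGATAA in the matched stretch (chrII:1832031-1832131, plus strand and chrII:1830333-1830433, plus strand).
math-39: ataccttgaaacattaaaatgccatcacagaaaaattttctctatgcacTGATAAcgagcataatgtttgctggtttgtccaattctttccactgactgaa
math-40: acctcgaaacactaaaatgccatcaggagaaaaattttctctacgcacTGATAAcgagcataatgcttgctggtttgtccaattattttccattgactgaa

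A further group of related sites lacked TGATAA. The region of math-44 (II 1989030 to 1989379) had the lowest signal of the 18 genes, 37.2, with 25.7 (rank 8037) in replicate 1 and 9.65 (rank 11852) in replicate 2, and its summit was 105 bp upstream. Its window matches the promoters of math-16 at 90 of 101 bases (89.1%), math-5 at 86 (85.1%) and math-6 at 82 (81.2%). The pooled signal was 29.2 at math-5 and 10.5 at math-16, and math-6 had no pooled region in its promoter. The windows of math-44 and math-16 are shown as the closest of these matches (chrII:1989155-1989255, plus strand and chrII:1878862-1878962, minus strand).
math-44: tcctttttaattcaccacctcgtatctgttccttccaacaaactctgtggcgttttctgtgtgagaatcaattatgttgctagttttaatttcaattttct
math-16: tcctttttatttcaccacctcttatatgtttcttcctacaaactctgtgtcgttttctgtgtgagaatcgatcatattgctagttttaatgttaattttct

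The other 7 math genes had signals from 39.2 to 94.9. The strongest was math-34 (II 1028723 to 1028835), with 94.9 in the pooled data, 57.4 in replicate 1 and 34.6 in replicate 2, and a summit 150 bp upstream. It lies apart from the main array. The region of math-15 (II 1865741 to 1866090) had a signal of 77.1, with 51.2 and 25.6 in the replicates, 465 bp upstream. Both genes ranked among the top 8745 regions of each replicate list, with ranks of 3205 and 3375 for math-34 and of 3753 and 5008 for math-15. The region of math-10 (II 1870923 to 1871272) had a signal of 57.02, with 34.1 and 28.9 in the replicates, 444 bp upstream. The region of math-38 (II 1579935 to 1580284) had a signal of 52.8, with 36.4 and 17.6, 124 bp upstream. The window of math-38 holds a pair of TGATAA copies on the same strand, each followed by g, and is shown for that reason (chrII:1580060-1580160, minus strand).
math-38: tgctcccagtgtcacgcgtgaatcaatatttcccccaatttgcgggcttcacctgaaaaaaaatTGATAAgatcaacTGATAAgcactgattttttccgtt

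The last 3 were math-37, math-45 and math-21. The region of math-37 (II 2122108 to 2122457) had a signal of 61.5 with a summit 92 bp upstream, and the replicate regions covering that summit had signals of 39.6 and 20.7. The region of math-45 (II 1517303 to 1517652) had a signal of 45, with 29.3 and 15.5 in the replicates, and a summit 24 bp upstream, the closest of the math genes to the TSS. Both were present in each replicate list within its top 8745 regions. In the math-37 promoter, however, each replicate list has a stronger region elsewhere, with signals of 51.1 and 33.6, which the pooled list does not hold as a region of its own. The region of math-21 (II 1993613 to 1993962) had a signal of 39.2, with 33.3 in replicate 1 and no region over the summit in replicate 2.

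In the replicate lists, 17 of the 18 summits were covered by a region in both, math-21 being the exception. For 15 of 18, both regions ranked among the top 8745 of their list, the size of the optimal set. The same shares over all optimal regions were not computed, so these counts do not rate the replicate support against other genes. The exceptions were math-21, math-44 and bath-25, and in each of them replicate 2 was the lower. The lists have different scales, with median signals of 10.4 in replicate 1 and 6.85 in replicate 2, so ranks and not signals are compared between them.

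**Figure D2:**
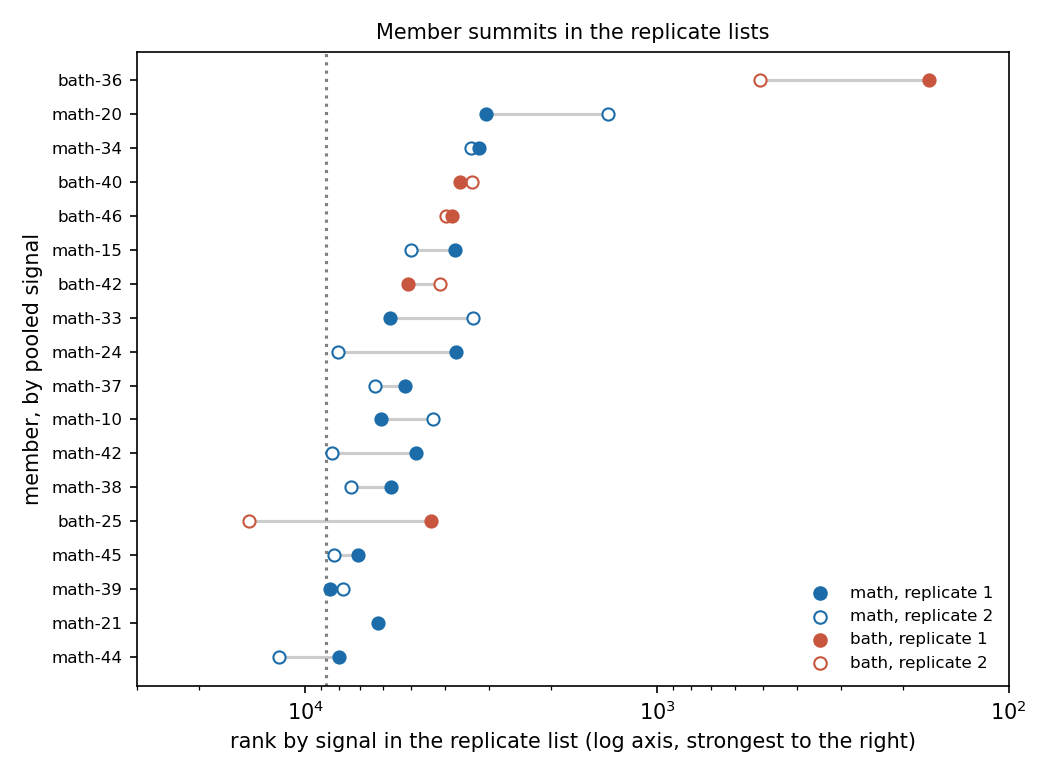
Rank by signal of the region covering each of the 18 summits (horizontal log axis, strongest to the right) in replicate 1 (filled) and replicate 2 (open), with genes ordered by pooled signal. The dotted line is at rank 8745. Open points lie left of it for bath-25 and math-44, and math-21 has no open point.

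Against the TSS, math summits lay from 601 to 24 bp upstream, with a median of 257 bp. Of these, 7 were within 300 bp upstream and 6 were farther. The 5 bath summits ran from 642 bp upstream to 66 bp downstream, with 3 within 300 bp upstream. Each of the 18 genes had 1 optimal summit in its promoter, and 15 of the summits lay in the promoter of no other protein-coding gene. The 3 shared ones were at bath-36, bath-42 and math-33. Sharing was thus about as frequent as in general, since 18.8% of all 4652 promoter summits lay in 2 or more promoters. No optimal summit lay in the body of any of the 73 genes outside a promoter. The share of all protein-coding genes with such a summit was not computed.

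Below the optimal set, the pooled list holds weaker regions, many of them background kept on purpose. Counting all pooled regions at the maximal deposited −log10 q of 4.32, 16 math genes and 5 bath genes had a promoter summit, beside 28.6% of all protein-coding genes. Counting any pooled region, 24 of 37 math genes and 12 of 36 bath genes had one, beside 46.0% of all protein-coding genes. No pooled promoter region was found for 13 math genes (35.1%) and 24 bath genes (66.7%), beside 54.0% of all genes. The families thus differed in the same direction at each of these levels. The replicate lists added few genes, and 33 of the 73 had no promoter region in any of the 4 lists, 11 of them math and 22 bath. The share of all protein-coding genes without a region in any of the 4 lists was not computed. That count is therefore not read against a background.

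The highest pooled signal among genes without an optimal summit was 31.5, rank 9723, from 1 region whose summit lies in the overlapping promoters of math-3 and math-26. These promoters repeat elsewhere in the genome, with 54.5% and 41.5% of their 36-base words occurring once. Next were math-5, with 29.2 and no region over that summit in replicate 2, and math-22, with 26.1. A region of signal 25.1 shared by bath-26 and bath-47 followed. For bath-38, each replicate list had a promoter region within its top 8745 (24.4, rank 8353, and 15.4, rank 8361). The strongest pooled promoter region had a signal of 22.8 and rank 12050 in the pooled list, and lay 594 bp upstream.

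The families lie mostly on chromosome II, with 35 of 37 math genes and 26 of 36 bath genes there. On that chromosome, 12 math genes (34.3%) and 1 bath gene, bath-46 (3.85%), had a promoter summit, beside 23.4% of its 3449 protein-coding genes. Off chromosome II the counts are small, with 5 summits at 12 genes (41.7%), 4 of them bath, beside 25.1% of the protein-coding genes off that chromosome. The densest stretch, II from 1.5 to 2.2 Mb, holds 48 of the 73 genes. There 11 of 34 math genes and 1 of 14 bath genes had a summit, beside 19 of 159 other protein-coding genes (11.9%). The summits of those other genes had a median signal of 105, above that of the math and bath genes in the stretch (56.2). In a smaller stretch, II from 3.3 to 3.8 Mb, none of 8 bath genes had an optimal promoter summit, beside 15 of 148 other genes (10.1%).

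**Figure D3:**
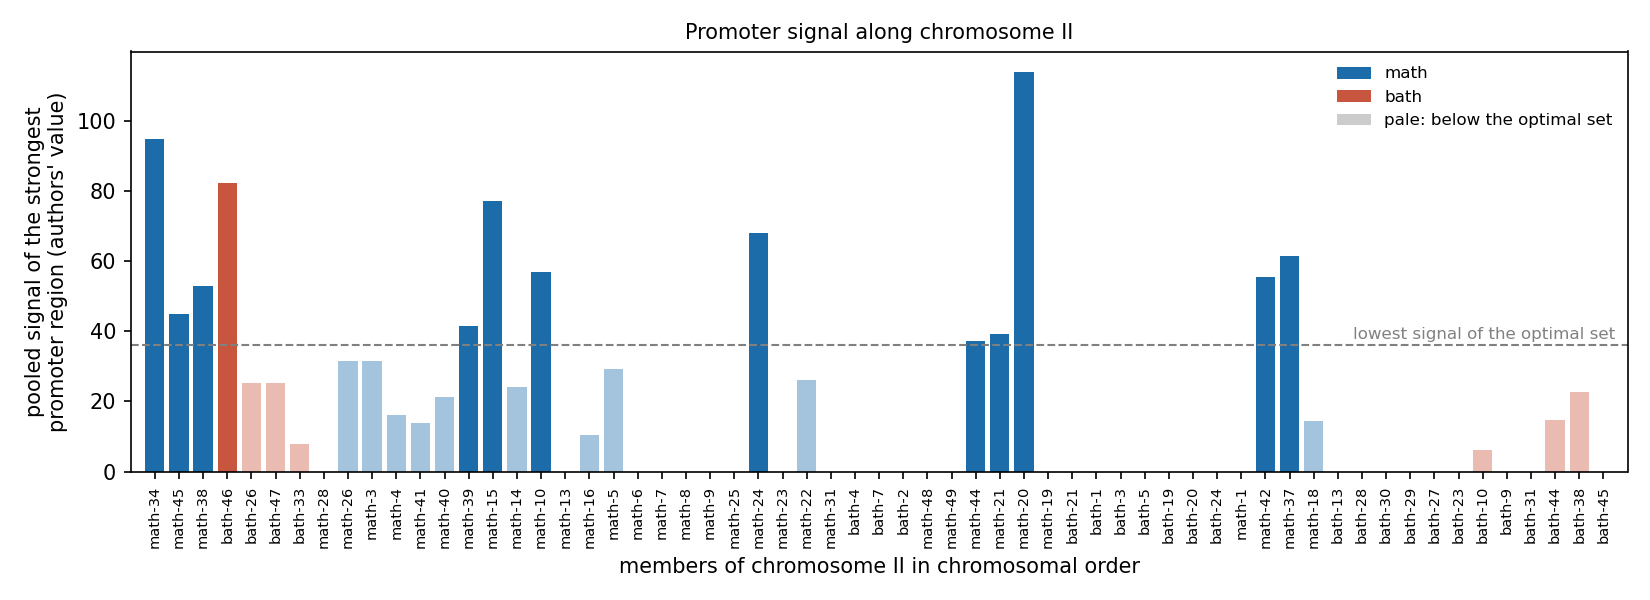
Pooled signal of the strongest promoter region (vertical axis, the authors' value) of the 61 math and bath genes in their order along chromosome II, with pale bars for regions below the optimal set and no bar where the pooled list has no promoter region. Of the 61 genes, 13 have an optimal summit above the dashed line, and 1 of these is a bath gene.

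Genes were also split by whether another gene of either family lay within 20 kb. For math genes the counts with a promoter summit were 8 of 30 with such a neighbour (26.7%) and 5 of 7 without (71.4%). For bath genes they were 1 of 23 (4.35%) and 4 of 13 (30.8%). Beside these, a promoter summit was present at 24.8% of all protein-coding genes and at 47 of 272 genes of neither family within 20 kb of a math or bath gene (17.3%), or 16 of 163 of those on chromosome II (9.82%). These splits were not tested, and the smaller groups hold few genes.

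Related arrays can lack uniquely mapping reads, so the uniqueness of the promoters was measured as the share of 36-base words that occur once in the genome. It was at least 90% in 29 of 37 math promoters and 28 of 36 bath promoters, and the median was 98.3% in math and 98.8% in bath. Among these promoters a summit was present at 13 math genes (44.8%) and 4 bath genes (14.3%), beside 26.6% of all genes with such promoters. Of the 16 less unique promoters, only that of bath-46 had a summit (6.25%), beside 13.0% of all less unique promoters. The bath-46 promoter was 68.5% unique, but the region itself was 99.7% unique. At math-34 the promoter was 98.5% unique and the region 78.2%. The share of promoters over the limit was therefore close in the families as wholes. On chromosome II it was 80.0% for math and 73.1% for bath. For genes with another gene of either family within 20 kb it was 80.0% and 69.6%. The difference in summits between the families was present among the unique promoters. Whether uniqueness contributes to that difference was not tested. How the authors treated reads that map to several places was not given in the sources used here.

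The GATA hexamer TGATAA, searched on both strands within 50 bp of the summit, was present at 14 of the 18 summits (77.8%). It was present at 1502 of all 4652 promoter summits (32.3%) and at 2910 of all 8745 optimal summits (33.3%). By family it was found at 11 of 13 math summits (84.6%) and 3 of 5 bath summits (60%). It was absent from the windows of bath-40, bath-42, math-33 and math-44, of which bath-42 and math-33 share their summits with nearer genes. Among the 14, 4 windows held a pair of copies, those of math-20, math-37, math-38 and math-42. At least 1 copy read along the strand of the gene in 13 windows. Pairs and strands were not counted over all promoter summits, so neither is read as a trait of these genes. A longer form, ACTGATAA, which was chosen after the windows had been read, was present at 9 of 18 summits, beside 9.67% of all promoter summits. A match is a description of letters and does not show binding by a GATA factor.

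The high share of TGATAA was also found at other genes of the same stretch. Between 1.5 and 2.2 Mb of chromosome II, 12 of 17 promoter summits at other genes held it (70.6%), whereas over all of chromosome II the share was 33.5%. At summits of fbxa genes, another expanded family, it was 32 of 52 (61.5%). Among the promoter summits of lower signal in the optimal set, 28.7% held it. Whether the high share belongs to the families or to the stretch was not tested.

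**Figure D4:**
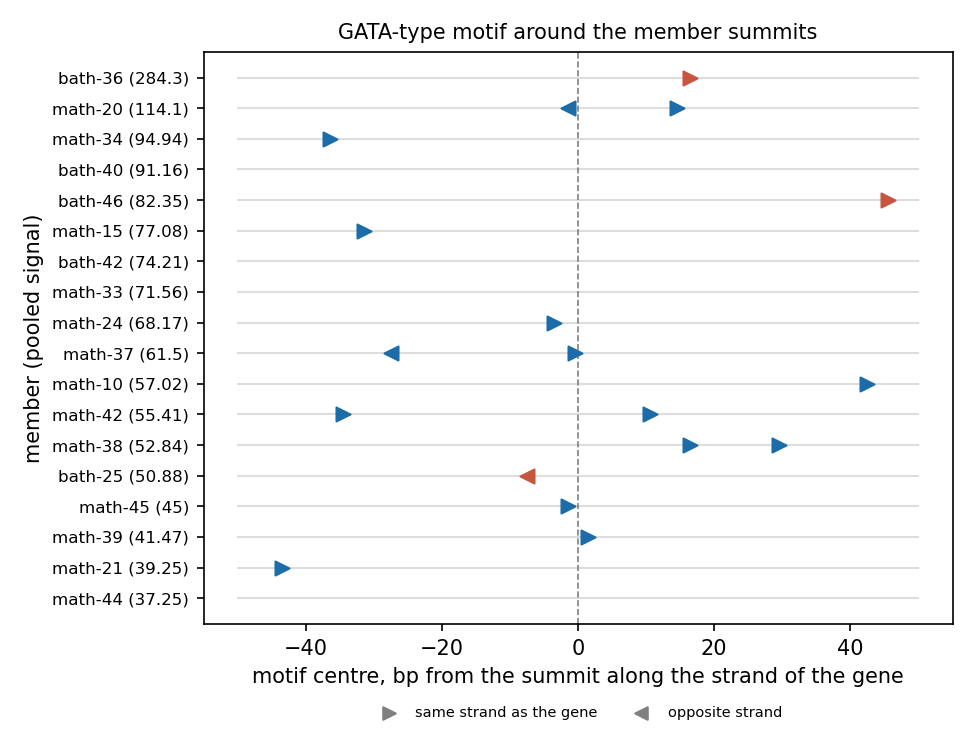
Position of TGATAA, on either strand, in the window of 50 bp on each side of the 18 summits, in the direction of each gene (horizontal axis, bp from the summit). Copies lie on both sides of the summit, and 4 genes have none.

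The other 6 motifs searched on both strands were at 0 to 2 of the 18 summits each. AGGTCA, a hexamer bound by many nuclear receptors, was at none of them, beside 4.17% of all promoter summits. AGTTCA, a related hexamer, was at 1 (5.56%), that of math-15, beside 5.78% of all promoter summits. GAGAGAGA and CACGTG were at none, beside 4.88% and 4.62% of all promoter summits. GTAAACA, bound by forkhead factors, was at 1 (5.56%), that of math-21, beside 2.97%. TATAAA was at 2 (11.1%), those of math-21 and math-37, beside 8.06%. With 18 windows, 1 summit more or less moves a share by 5.56 percentage points, so these counts are not set apart from the shares over all promoter summits. The windows of math-20 and math-24 are related in sequence, so the 18 windows are not all independent. No limit on a share was drawn from the counts of 0 for AGGTCA, GAGAGAGA and CACGTG.

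Over the whole promoter, TGATAA was common in math genes whether or not they had a summit. For genes with several TSS, only the promoter of the most upstream TSS was searched, whereas a summit could lie at any TSS. It was present in all 13 math promoters with a summit, at a mean of 3.38 copies, and in 21 of 24 without (87.5%), at 2.17 copies. In bath genes it was present in all 5 with a summit (1.60 copies) and in 18 of 31 without (58.1%, 1.10 copies). Over all protein-coding genes, 78.2% of promoters with a summit and 69.9% of those without held it, at means of 1.76 and 1.29 copies. Both math groups were thus above the all-gene mean number of copies, and the bath promoters without a summit were below it.

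Genes of the CUL-3 pathway were set beside the families, using a list of 25 genes of which 23 were found in the annotation. A promoter summit was present at 8 of the 23 (34.8%), beside 24.8% of all protein-coding genes, with a median signal of 70.0, beside 78.7. For the ligase core these included rbx-1, the RING subunit, at 91.8 (replicates 49.6 and 37.9), whereas cul-3 itself had only a weaker pooled region with a signal of 31.5 and rank 9736. The substrate adaptors with a summit were mel-26, at 71.4 (47.3 and 25.6), and the kelch genes kel-3, at 69.8 (34.01 and 38.9), and kel-8, at 57.9 (42.4 and 17.5). Of the genes that attach the ubiquitin-like protein NED-8 to cullins, dcn-1 had 102 (44.2 and 55.2) and ubc-12, which encodes the conjugating enzyme, had 70.2 (30.0 and 36.8). The COP9 signalosome gene csn-1, whose complex removes NED-8, had 44.1 (36.2 and 11.8), and ppfr-1, a phosphatase regulatory subunit gene, had 68.6 (38.7 and 29.3). The summits of dcn-1, ubc-12, kel-3 and csn-1 also lie in the promoter of a neighbouring gene. Every one of these 8 signals was below that of bath-36, and 7 of the 8 were above the math median of 57.02.

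Other expanded families of ubiquitin ligase adaptors had shares that differed as much as those of math and bath. Promoter summits were present at 53 of 170 fbxa genes (31.2%, median signal 64.3), 5 of 104 fbxb genes (4.81%) and 6 of 48 fbxc genes (12.5%), all of which encode F-box proteins. They were present at 3 of 17 btb genes (17.6%) and 3 of 20 skr genes (15%), the latter encoding Skp1-related proteins that hold F-box proteins on a cullin. The math share was nearest to that of fbxa, and the bath share lay between those of fbxc and skr.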

How the data were processed

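The files hold regions from eGFP-NHR-28 ChIP-seq of L4 larvae, with 1 list for each of 2 replicates, 1 for the pooled reads and the optimal set. Per the deposited descriptions, the authors called regions relative to a control and retained background ones for the irreproducible discovery rate procedure. Neither peak caller nor threshold is stated in those descriptions or in the labels. The deposited signal is the authors' own value per region, and the deposited −log10 q reached its maximum of 4.32 in 10560 of 29697 pooled regions, so regions were ranked by signal. Summit offsets were used as deposited. Read counts were not analysed here, so depth and the counting error of a region are unknown.

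Coordinates are 1-based on ce11, with genes of Ensembl release 115, and mitochondrial genes were left out. A promoter was 1000 bp upstream to 200 bp downstream of any TSS. For the copies of TGATAA in whole promoters and for the alignments, only the most upstream TSS of each gene was used. Replicate values are those of the region of highest signal covering the optimal summit. Uniqueness counted 36-base words on both strands. Windows of 101 bp around member summits were aligned locally to the other member promoters (match 2, mismatch −3, gap opening −5, extension −2), keeping scores of at least 60, a limit chosen after the windows were seen. Python 3.11.15, NumPy 2.4.6 and Biopython 1.88 were used, and the steps were tested on simulated data. All genes with an optimal summit, the 5 highest without one and the listed CUL-3 genes with one are named; a tie added a sixth, and bath-38 and math-40, math-16 and math-6 were named after their values were seen. The members and lists were chosen with earlier results of these data known. Alternatives changed the promoter window, the list, the assignment to a TSS, uniqueness and the replicates.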

Additional observations from a re-analysis of the deposited data

How the results depend on the processing

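The math count was 13 and ran from 10 to 16 under the other settings, except for the 4372 regions of highest signal, which left 3. The bath count was 5 and ran from 4 to 7. The share of all protein-coding genes with a promoter summit, 24.8%, also moved with the setting. It was 19.7% with a promoter of 500 bp upstream to 100 bp downstream and 31.6% with 2000 bp to 500 bp. With all pooled regions at the maximal −log10 q it was 28.6%, and for the 4372 highest regions 13.7%. The bath minus math share was -21.25 percentage points. It was 3.00, the opposite sign, for the 4372 highest regions, -29.35 with all pooled regions at the maximal −log10 q and -30.5 for promoters at least 90% unique. The ratio of bath to math median signal was 1.44. It was 1.60 with a promoter of 500 bp upstream to 100 bp downstream, 1.32 with 2000 bp to 500 bp and 0.914, the opposite direction, for the highest regions, and leaving out a replicate gave 1.20 to 1.37. The share of summits with TGATAA was 77.8%. It was 50% within 25 bp (18.9% of all promoter summits), 88.9% within 100 bp (44.4%), 85.7% with the narrow promoter (31.4%) and 71.4% for the highest regions (35.6%), and 72.7% to 77.8% without a replicate (33.3% and 29.2%). The causes were not tested. The settings for TGATAA were chosen after seeing the data.

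With replicate 2 alone, math-21, math-44 and bath-25 lost their summit and bath-38 gained one, and with replicate 1 alone math-26, math-3, math-5 and bath-38 gained one. The narrow promoter lost math-20, math-24, math-33 and bath-42, and assignment to the nearest TSS lost math-33 and bath-42. No paired analysis was possible because there is 1 group.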

Other observations

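The encoded proteins differed in length between the families. The median was 383 residues in math (105 to 1138) and 308.5 in bath (242 to 706). Identity between annotated products was the percent of identical residues over the length of the shorter protein, in a global alignment without penalty for end gaps. By it, the closest relative of a protein among the 73 was in its own family for 35 of 37 math and 34 of 36 bath genes. The median identity to that relative was 68.5% for math genes with a promoter summit and 70.5% for those without. For bath genes it was 31.6% with a summit and 47.1% without. A promoter summit was present at 10 of 23 math genes (43.5%) and 4 of 17 bath genes (23.5%) on the plus strand, beside 25.1% of all protein-coding genes there. On the minus strand it was present at 3 of 14 math genes (21.4%) and 1 of 19 bath genes (5.26%), beside 24.5%. These are descriptions, with no test.

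The windows of math-37 and math-42 match parts of each other's promoters outside the optimal regions. The math-37 window matches math-42 at 74 of 91 bases (81.3%), 105 bp upstream of that gene. The math-42 window matches math-37 at 48 of 54 bases (88.9%), 738 bp upstream.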
